A study of Mus musculus with 2 samples.

Results

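The E2F transcription factors and the pocket proteins of the RB family form the switch that lets a cell pass from G1 into S phase. The family was taken as 10 genes, 7 encoding E2F factors (E2f1, E2f2, E2f3, E2f4, E2f5, E2f7 and E2f8) and 3 encoding pocket proteins (Rb1, Rbl1 and Rbl2), of 18193 genes measured on the arrays. Every probe set that the platform annotation assigned to a single one of these genes was used, which gave 22 probe sets. None of the 10 genes was chosen by its measured value, but these genes and the gene lists below were set with earlier results of these data known.

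In resting cells the pocket proteins bind E2F factors and hold their target genes silent. Cyclin-dependent kinases phosphorylate the pocket proteins after mitogenic signals, E2F factors are released, and genes for DNA replication are transcribed. E2F1, E2F2 and E2F3 act mainly as activators and bind RB, E2F4 and E2F5 act mainly with p107 and p130 as repressors, and E2F7 and E2F8 repress without binding a pocket protein. Activated B cells divide rapidly and run through this switch in every cycle.

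RNA came from mouse B cells, cultured and activated, with 1 array labelled miR-155 knockout and 1 labelled miR-155 wild-type, both of C57 background and from male mice. All cells received cycloheximide, an inhibitor of translation, at 100 ug/ml for 8 min before they were harvested. The protocol text describes haematopoietic progenitors grown for 6 days with granulocyte colony-stimulating factor and stem cell factor, whereas the design text and the cell type entry name B cells. Titles and genotype entries assign the genotypes as used here and source names assign the opposite, so every sign below turns over if the source names are right.

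miR-155 is a microRNA induced on B cell activation, and its mature 5′ arm (chr16:84714143-84714165, plus strand, GRCm38.p6, from RefSeq) is shown because it is the molecule that the genotypes differ in, with the seed, bases 2 to 8, in capitals.
mmu-miR-155-5p: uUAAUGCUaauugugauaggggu
Its host transcript Mir155hg had a log2 level of 10.88 on the array labelled knockout, against 6.63 on the array labelled wild-type. The lower value is under the level for expression defined below. Set against that level, Mir155hg was at least 18.0-fold higher with the knockout label. The targeted gene thus went against the genotype label, and whether its probe set lies in the deleted part was not determined. Of 19 measured B cell markers 18 were expressed, and Fcrla was not. Of 16 neutrophil and precursor markers measured 4 were expressed, Lcn2, Gfi1, Camp and Prtn3, while Mpo and Elane were among the 12 that were not. Of 13 measured stem and progenitor markers 5 were expressed, Slamf1, Lmo2, Flt3, Myb and Hoxa9, while Kit and Cd34 were not. Of 16 macrophage and monocyte markers 8 were expressed, and 6 of 10 T cell markers. Of all 18193 genes measured, 10717 were expressed. A gene counted as expressed where its mean log2 level over both arrays reached 6.71, which is the median level of probe sets other than array controls. With 1 array per label the spread between cultures is unknown, and no difference was tested. Every difference below is a log2 level on the array labelled knockout minus that on the array labelled wild-type.

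The family as a whole differed little between the arrays. Of the 10 genes 9 were expressed, as were 10717 of all 18193 genes, and the exception was E2f7. Of these 9, 6 were higher and 3 lower with the knockout label, where 56.9% of all 10717 expressed genes were higher and 42.1% lower, so the split was near that of the transcriptome. After quantile normalization or loess subtraction the members stayed at 6 of 9 higher, while the share of all expressed genes that were higher was 49.2% and 47.4%. The median difference of the 9 genes was 0.13, against 0.03 over all expressed genes. E2f8 was the only expressed member higher by 0.3 or more (1.23-fold), a size that 4.78% of expressed genes reached in that direction, and it was below 0.3 after quantile normalization (0.27), loess subtraction (0.28) or averaging of probe sets (0.28). E2f2 was the only one lower by 0.3 or more, which 4.59% of expressed genes were. After quantile normalization these shares were 3.51% and 5.38%, and after subtraction of a loess curve they were 3.42% and 5.39%. Counted by probe set, 11 of the 16 expressed ones were higher and 5 lower, against 58.8% and 40.2% of all expressed probe sets. No member differed by 0.5 or more in either direction, as 0.681% of expressed genes did upwards and 1.31% downwards.

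**Figure D1:**
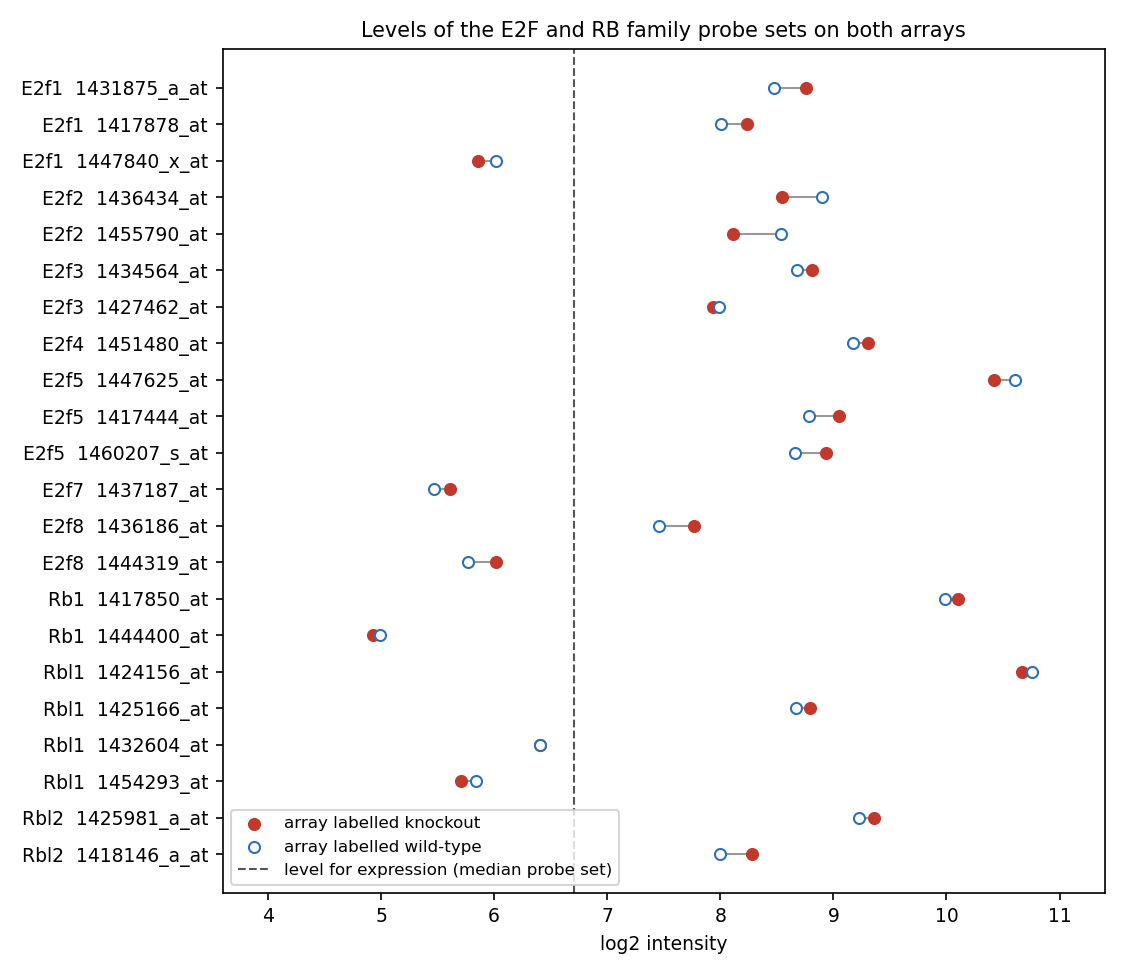
Log2 intensity of each of the 22 probe sets of the E2F and RB family genes on both arrays, labelled knockout (filled) and labelled wild-type (open). The dashed line at 6.71 marks the level for expression, and 6 probe sets lie below it. The widest gaps with the lower value on the array labelled knockout belong to the 2 probe sets of E2f2.

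Among the activators, E2f2 was lower on the array labelled knockout while E2f1 was higher. The brighter probe set of E2f2 had a log2 level of 8.55 on the array labelled knockout, against 8.90 on the array labelled wild-type, a difference of -0.35 or a ratio of 0.783. Its other probe set gave levels of 8.11 and 8.54 in the same order, a difference of -0.42. Both probe sets of E2f2 were therefore expressed and lower, by amounts that lay within 0.07 of each other. The first of these differences was at percentile 3.11 of all expressed genes.

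E2f1, the founding member of the family and an activator of replication genes, was read by 3 probe sets. The brightest had a level of 8.76 on the array labelled knockout, against 8.48 on the array labelled wild-type, a difference of 0.28, just short of 0.3 (E2f8 lay just past it, at 0.304). The next probe set gave levels of 8.23 and 8.01, a difference of 0.22. The remaining probe set, whose _x_at suffix marks probes that may match other sequences, was below the level for expression and differed by -0.16. The expressed probe sets of E2f1 were thus both higher, and the main difference lay at percentile 94.3 of expressed genes.

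E2f3, an activator with alternative promoters, did not have a settled direction. Its brighter probe set had a level of 8.81 on the array labelled knockout, against 8.68 on the array labelled wild-type, a difference of 0.13. The dimmer one gave 7.94 and 7.99, a difference of -0.05. The 3 activators thus held the lowest member of the family, one of its highest members, and one whose probe sets disagreed in sign.

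Of the repressors that work with the pocket proteins, E2f4 was slightly higher and E2f5 depended on the probe set. E2f4 was read by a single probe set, with a level of 9.30 on the array labelled knockout, against 9.18 on the array labelled wild-type, a difference of 0.13. E2f5 was read by 3 expressed probe sets. The brightest, for which the annotation gives no accession, had levels of 10.42 and 10.61 in that order, a difference of -0.19. The other probe sets of E2f5 differed by 0.27 and 0.28, with levels of 9.05 and 8.94 on the array labelled knockout, against 8.78 and 8.66 on the array labelled wild-type. Since a gene took the value of its brightest probe set, E2f5 counted as lower, but the mean of its probe sets was higher by 0.12.

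The atypical repressors E2F7 and E2F8 carry paired DNA-binding domains and are themselves made from E2F-driven genes in S phase. E2f8 had a level of 7.76 on the array labelled knockout, against 7.46 on the array labelled wild-type, the difference of 0.30 given above, at percentile 95.4 of expressed genes. Its other probe set was below the level for expression, with 6.02 and 5.77, and differed by 0.25 in the same direction. E2f7 had levels of 5.61 and 5.46, a difference of 0.14 between values that were both below the level for expression, so no fold is drawn from it.

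The pocket protein genes differed by between -0.09 and 0.13 with their brightest probe sets. Rb1, the retinoblastoma tumour suppressor gene, had a level of 10.10 on the array labelled knockout, against 9.98 on the array labelled wild-type, a difference of 0.12. A further Rb1 probe set, below the level for expression, differed by -0.06. Rbl2, which encodes p130, the pocket protein of resting cells, had levels of 9.36 and 9.23 in the same order, a difference of 0.13, and its other expressed probe set gave 8.28 and 8.00, a difference of 0.28. Both Rbl2 probe sets were higher on the array labelled knockout, by amounts that differed 0.15 from each other.

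Rbl1 encodes p107, a pocket protein that is itself under E2F control and accumulates in cycling cells. It was read by 4 probe sets, of which 2 were expressed. The brightest had a level of 10.67 on the array labelled knockout, against 10.76 on the array labelled wild-type, a difference of -0.09. The second gave levels of 8.80 and 8.67, a difference of 0.13. Of the other probe sets 1 had the identical level of 6.40 on both arrays and 1 differed by -0.13, both below the level for expression, so Rbl1 had no settled direction.

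How well probe sets agree limits these statements. Over 4906 genes with at least 2 expressed probe sets, the log2 differences of the brightest pair lay a median of 0.08 apart and 0.31 apart at the 95th percentile. All expressed probe sets pointed in one direction for 3 of the 6 family members with at least 2 of them, E2f1, E2f2 and Rbl2, against 60.7% of all such genes. The spread over the expressed probe sets of E2f5, 0.46, exceeded the 95th percentile for pairs. E2f4, E2f8 and Rb1 rested on 1 expressed probe set each.

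**Figure D2:**
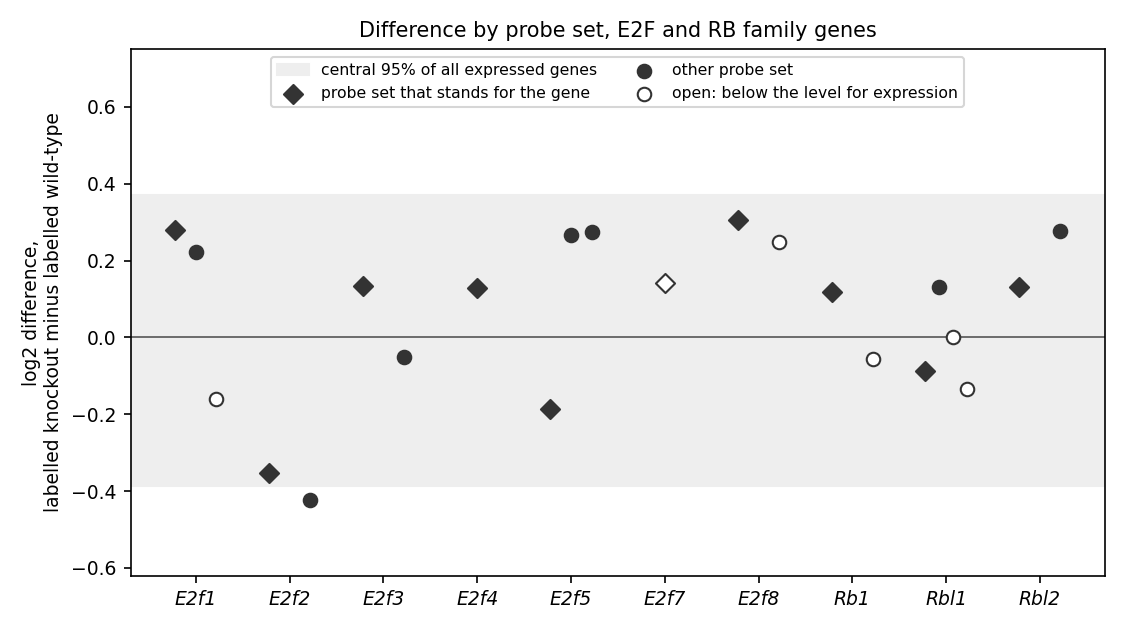
Log2 difference, array labelled knockout minus array labelled wild-type, of every probe set of the 10 genes. Diamonds stand for the gene's value, circles are further probe sets, open symbols are below the level for expression, and the grey band is the central 95% of all expressed genes (-0.39 to 0.37). One E2f2 probe set, at -0.42, is outside the band.

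Several family genes are known to be controlled by E2F factors themselves, so the promoter windows of the members were searched for E2F sites. RefSeq-based windows of 300 bases, 250 before to 50 after an annotated start (GRCm38.p6), matched 7 of the 10 genes with 9 windows. The letters searched on both strands were TTTCCCGC, TTTCGCGC, TTTGCCGC and TTTGGCGC, and no matches overlapped in the members' windows. Of the members 4 of 7 held a match, against 2.6% of all 27025 genes with windows. Of their windows 4 of 9 did, against 2.26% of all 32851 windows. The windows compared were not matched to those of the members in base composition. The 4 windows are shown on the gene's strand, 5′ to 3′, with the match in capitals, which for E2f3 and E2f7 is the reverse complement of TTTCCCGC.
E2f2: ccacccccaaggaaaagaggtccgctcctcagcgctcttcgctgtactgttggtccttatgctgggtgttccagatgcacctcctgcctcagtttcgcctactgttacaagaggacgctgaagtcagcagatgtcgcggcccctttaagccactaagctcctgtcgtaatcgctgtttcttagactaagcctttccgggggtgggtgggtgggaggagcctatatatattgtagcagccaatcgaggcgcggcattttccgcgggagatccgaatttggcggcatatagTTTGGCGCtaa
E2f3: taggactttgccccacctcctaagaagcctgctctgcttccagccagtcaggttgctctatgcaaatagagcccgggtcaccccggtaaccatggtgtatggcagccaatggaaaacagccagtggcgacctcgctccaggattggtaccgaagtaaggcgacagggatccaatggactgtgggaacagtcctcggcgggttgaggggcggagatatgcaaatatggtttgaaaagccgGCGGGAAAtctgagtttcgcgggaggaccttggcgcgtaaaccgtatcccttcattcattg
E2f7: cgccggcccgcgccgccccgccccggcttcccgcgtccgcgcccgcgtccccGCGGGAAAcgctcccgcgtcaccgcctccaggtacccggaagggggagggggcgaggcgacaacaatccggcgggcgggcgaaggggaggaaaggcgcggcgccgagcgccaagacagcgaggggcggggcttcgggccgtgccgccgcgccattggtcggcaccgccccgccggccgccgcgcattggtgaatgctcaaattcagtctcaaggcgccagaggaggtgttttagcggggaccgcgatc
Rbl1: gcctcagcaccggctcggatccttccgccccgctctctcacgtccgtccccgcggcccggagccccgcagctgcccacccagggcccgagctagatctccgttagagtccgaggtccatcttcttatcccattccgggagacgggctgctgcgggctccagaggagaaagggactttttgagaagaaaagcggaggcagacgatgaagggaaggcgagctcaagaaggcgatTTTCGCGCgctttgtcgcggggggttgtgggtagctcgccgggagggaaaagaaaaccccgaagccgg
The E2f2 window (chr4:136172024-136172323, plus strand) held TTTGGCGC from base 40 after the start. The E2f3 window (chr13:29986014-29986313, minus strand) held its match from 11 bases before the start, the E2f7 window (chr10:110745189-110745488, plus strand) from 198 bases before, and the Rbl1 window (chr2:157204485-157204784, minus strand) held TTTCGCGC from 18 bases before. Members with a match had differences of -0.35 (E2f2), 0.13 (E2f3) and -0.09 (Rbl1), with E2f7 below the level for expression. Those searched without a match had 0.28 (E2f1), 0.30 (E2f8) and 0.13 (Rbl2). Since E2f3 and Rbl1 had no settled direction across probe sets, these values cannot show whether a match goes with a direction. The windows of E2f1 and E2f8 lie inside the span of their genes in RefSeq, and sequence further upstream was not searched. A match describes letters only, and its absence says nothing about binding.

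The partners that E2F factors need for DNA binding were also measured. Tfdp1, which encodes the dimer partner DP1, had a level of 11.33 on the array labelled knockout, against 10.93 on the array labelled wild-type, a difference of 0.40. Tfdp1 rested on 1 probe set. Tfdp2, for the partner DP2, had 8.18 and 7.93, a difference of 0.25, and its 3 expressed probe sets ran from 0.23 to 0.32. E2f6, a repressor that lacks a pocket protein binding domain and was not counted in the family, differed by -0.21 with its brighter probe set and by 0.13 with the other. Both DP genes were higher, and E2f6 had no settled direction.

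The pocket protein p107 or p130, bound to E2F4 or E2F5, assembles with the MuvB core into the DREAM complex. DREAM silences cell cycle genes in resting cells, and MuvB later joins MYBL2 and FOXM1 to activate mitotic genes. Of 8 expressed genes of this group 6 were higher and 2 lower, with a median of 0.08, beside 56.9% higher and 42.1% lower over all expressed genes. Mybl2 was the highest, with a level of 9.25 on the array labelled knockout, against 8.90 on the array labelled wild-type, a difference of 0.35, and Lin54, the DNA-binding MuvB subunit, differed by 0.22. Lin37, another MuvB subunit, was the lowest at -0.15. Dyrk1a, a kinase that promotes DREAM assembly, was at -0.05.

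Among the kinases that phosphorylate RB, their cyclins and regulators, 14 of 18 expressed genes were higher and 4 lower, with a median of 0.10, where 56.9% of all expressed genes were higher. The extremes were the lower ones. Cdkn2b, which encodes p15, an inhibitor of CDK4 and CDK6, had a level of 8.29 on the array labelled knockout, against 9.23 on the array labelled wild-type, a difference of -0.94 or a ratio of 0.521. Only 1 probe set read Cdkn2b. Cdkn1a, which encodes p21, an inhibitor of CDK2 complexes, had 11.91 and 12.51, a difference of -0.60, and its 2 probe sets gave -0.60 and -0.69. These CDK inhibitor genes were the members of the group past 0.5 in either direction, and 1.31% of all expressed genes were lower by that much. At the other end were Fbxw7, the ubiquitin ligase subunit that targets cyclin E (0.39), and Cdc25a, the phosphatase that activates CDK2 (0.37).

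Corepressors recruited by RB family proteins were divided. Of 13 expressed genes 8 were higher and 5 lower, with a median of 0.07, near the 56.9% of all expressed genes that were higher. Ezh2, the Polycomb methyltransferase, was the highest at 0.37, followed by Dnmt1, the maintenance DNA methyltransferase, at 0.27, and both are also known E2F targets. Arid4a and Arid4b, RB-binding subunits of a histone deacetylase complex, were the lowest at -0.15 each.

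Known E2F target genes of G1 and S phase had higher levels on the array labelled knockout with few exceptions. After the family members were left out, 39 of 41 expressed targets were higher and 2 lower (38 higher after quantile normalization or loess subtraction), with a median of 0.30, against 56.9% higher and a median of 0.03 over all expressed genes. The listed targets left out as members were E2f1 (0.28), E2f8 (0.30), E2f2 (-0.35), Rbl1 (-0.09) and E2f7, which was not expressed. Of these, E2f2 was lower by more than 0.3. Of the 41 targets 21 were higher by 0.3 or more, as 4.78% of all expressed genes were, and none was lower by as much, as 4.59% were. Cdc6, a licensing factor that loads the replicative helicase, had a level of 9.71 on the array labelled knockout, against 8.62 on the array labelled wild-type, a difference of 1.09. Pola1, which encodes the polymerase subunit that starts new DNA strands with primase, had 9.29 and 8.79, a difference of 0.50. Cdc6 and Pola1 rested on 1 expressed probe set each. The lower targets were Cdt1, the partner of CDC6 in licensing, at -0.26 (both expressed probe sets, -0.26 and -0.25), and Mcm2, a helicase subunit, at -0.01. Among targets counted as higher, another expressed probe set was lower for Brca1 (-0.21), Mcm3 (-0.08) and Ccne1 (-0.07), and equal on both arrays for Cdc45.

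Genes of G2 and mitosis, which DREAM silences in resting cells, were all higher as reported, 26 of 26 expressed, and 25 of 26 after quantile normalization or loess subtraction. Their median was 0.27, and 10 were at 0.3 or more, against the same 56.9% higher and 4.78% at 0.3 or more over all expressed genes. Kif11, a mitotic kinesin, had a level of 7.93 on the array labelled knockout, against 7.27 on the array labelled wild-type, a difference of 0.66, although its 3 probe sets ran from 0.20 to 0.66. Nek2, a centrosome kinase, differed by 0.52 and rested on 1 expressed probe set. The lowest were Foxm1, a transcription factor of mitotic genes, at 0.03 and Plk4, the kinase of centriole duplication, at 0.07, and for both another expressed probe set was lower on the array labelled knockout (-0.21 and -0.08).

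**Figure D3:**
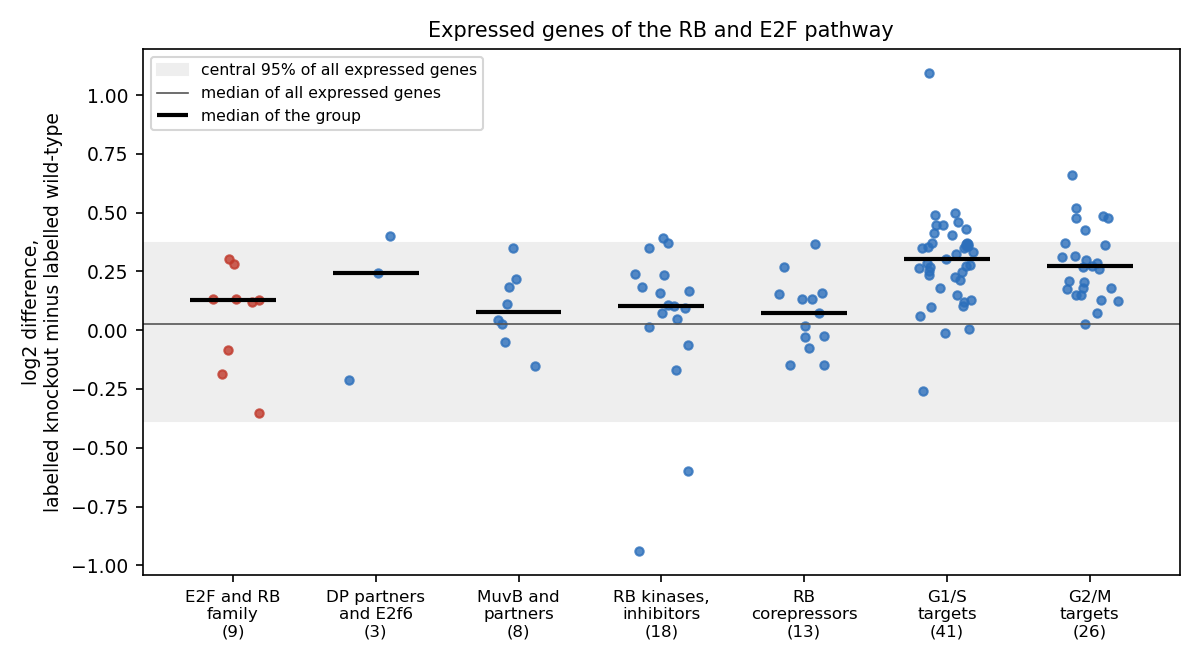
Log2 difference, array labelled knockout minus array labelled wild-type, of each expressed gene (points) in the E2F and RB family and in 6 groups of the same pathway, with group medians (bars), the number of expressed genes in brackets, the median of all expressed genes (thin line) and their central 95% (grey band). The family median is 0.13, and those of G1/S and G2/M targets are 0.30 and 0.27. Genes may stand in several groups.

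Markers of cell types were set beside these groups. Of 18 expressed B cell markers 14 were higher (median 0.15), where 56.9% of all expressed genes were, and the summed linear intensity of the 19 measured was 103980 on the array labelled knockout, against 94418 on the array labelled wild-type. Spib, an ETS factor of B cells (0.81), and Blk, a kinase of B cell receptor signalling (0.50), had the highest differences, and the costimulatory receptor gene Cd40 (-0.43) and the adaptor gene Bank1 (-0.18) the lowest. Of 8 expressed macrophage and monocyte markers 2 were higher and 6 lower, with a median of -0.22 and sums of 1967 and 2273 in the same order over 16 measured. Tyrobp (-0.39) and Cd14 (-0.35) were the lowest of them, Ccr2 (0.06) and Adgre1 (0.03) the highest, and Csf1r, Lyz2, Cd68 and Fcgr1 were the others expressed. Itgam, Mertk and the C1q genes were among the 8 below the level for expression.

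Of 5 expressed stem and progenitor markers 2 were higher and 3 lower, beside 56.9% higher and 42.1% lower over all expressed genes. Their median was -0.12, from Slamf1 (-0.45) and Flt3 (-0.27) to Myb (0.10) and Lmo2 (0.17). The sums over all 13 measured were 6863 and 7840. Slamf1 was the brightest of the 13, with log2 levels of 11.52 and 11.97 in the same order, and weighs most in these sums. The 4 expressed neutrophil and precursor markers differed little, from -0.07 for Camp and -0.05 for Prtn3 and Lcn2 to 0.16 for Gfi1 (median -0.05). The sums over all 16 measured were 2513 and 2457. The 6 expressed T cell markers were 3 higher and 3 lower (median -0.01), from Cd3d (-0.12) and Cd8a (-0.08) to Lat (0.14) and Cd3e (0.25). The sums over all 10 measured were 1683 and 1712. The part of cell composition in the differences of the family and its target genes was not tested. In RNA from a mixture, fewer cells of a type and less RNA per cell cannot be told apart.

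For E2f1, E2f3, E2f5, Rb1, Rbl1 and Rbl2 the choice of probe set moved the value more than the scaling of the arrays did. Averaging all probe sets of a gene, those below the level for expression included, brought E2f1 to 0.11, E2f3 to 0.04 and Rb1 to 0.03. It brought Rbl1 to -0.02 and Rbl2 to 0.20. E2f5 was -0.22 after quantile normalization and -0.23 after loess subtraction, but 0.27 with only the probe sets that carry an accession. E2f2 was -0.41 under both scalings and -0.39 as a mean of its probe sets.

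**Figure D4:**
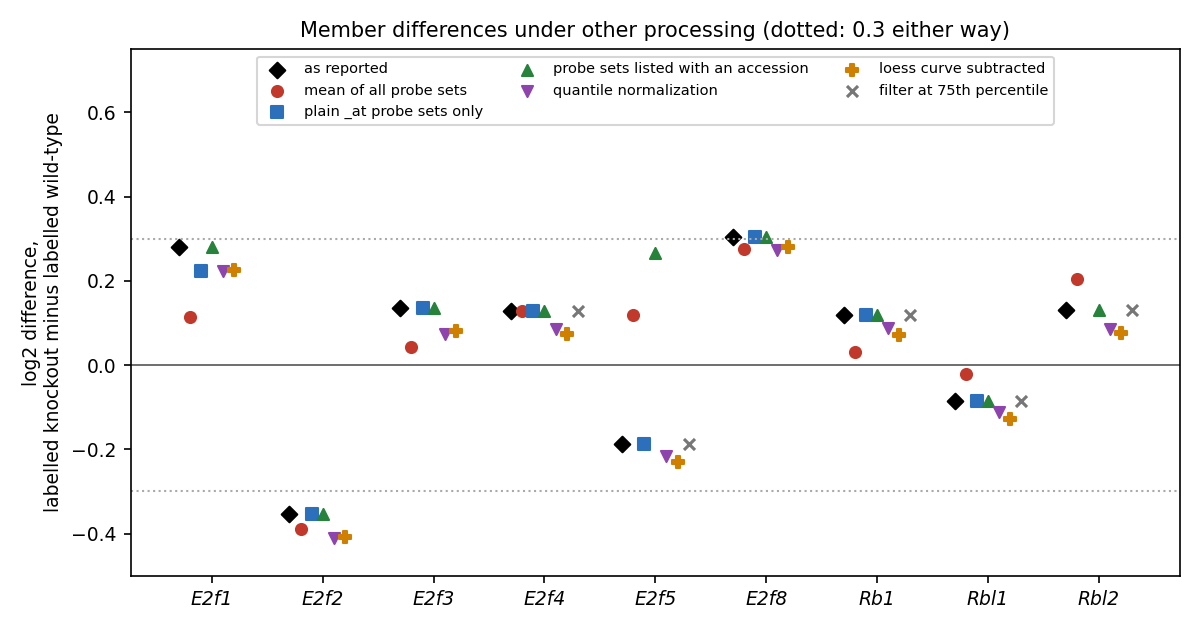
Log2 difference, array labelled knockout minus array labelled wild-type, of the 9 expressed members as reported (diamonds) and under 6 other ways of processing (other symbols). E2f2 stays between -0.41 and -0.35, E2f5 lies on either side of 0, and E2f8 lies between 0.27 and 0.30.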

How the data were processed

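RNA was measured on 2 Affymetrix expression arrays, 1 per genotype label. Per the labels' protocols, total RNA was extracted with Trizol and biotinylated cRNA was hybridised. The authors deposited log2 intensities for 45101 probe sets (3.09 to 15.4). That the unit is log2 was read from the values, and the sources used here do not give the summarisation or normalization. Sorted values differed by at most 0.064 between the arrays, so a change in total RNA per cell would not be visible. Both arrays correlated at r = 0.997 across probe sets, which are not independent replicates. The number of arrays limits the precision.

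Probe sets were named from the platform annotation. A single gene was given for 34945, several for 932 and none for 9160, and 64 were controls. All 10 members matched mouse RefSeq (GRCm38.p6) by Entrez number. A gene took the probe set with the highest mean, and 10717 genes passed the level for expression. Members and gene lists were chosen with earlier results of these data known. Lists share genes, such as Mybl2, Ezh2, Dnmt1 and Cdc25a. Members stand outside the target lists, and listed genes that lacked a singly named probe set were left out. Text names all members and, per list, the 2 highest and 2 lowest expressed genes and those at 0.5 or more. Some others are named for whether they were expressed or for probe sets that disagreed. The thresholds were 0.3, 0.5 and 1 on the log2 scale. Gene selection, filter and normalization steps were checked on simulated data with less noise than the real arrays, which checks the steps and not the reliability of the differences. Alternatives were the mean of probe sets, plain _at sets, quantile normalization, a loess curve (span 0.3), no filter, a filter at the 75th percentile and, added after seeing the data, only probe sets with an accession. Scripts ran in Python 3.11.15 with NumPy 2.4.6, pandas 2.3.3, matplotlib 3.10.9 and statsmodels 0.14.6.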

Additional observations from a re-analysis of the deposited data

How the results depend on the processing

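No paired analysis was possible because each label has 1 array, and no array could be left out. Differences of 0.08, the median gap between probe sets of a gene, or less were taken as unmoved. E2f5, at -0.19 as reported, was 0.12 when its probe sets were averaged and 0.27 with only probe sets that have an accession, since its brightest probe set, the lower one, has none. With the mean of probe sets E2f1 was 0.11, E2f3 0.04 and Rb1 0.03. The filter at the 75th percentile kept 5 members, 3 of them higher and 0 past 0.3 in either direction, and left 6 G2/M targets, all 6 higher. The count of members higher by 0.3 or more, 1 as reported, was 0 after the mean of probe sets, quantile normalization or loess, where E2f8 was 0.28, 0.27 and 0.28. E2f2 lay between -0.41 and -0.35 in the 6 alternatives that kept it. With the mean of probe sets 17 of 19 expressed G2/M targets were higher. Over the 7 alternatives the median of the members ran from 0.07 to 0.13, that of G1/S targets from 0.26 to 0.31 and that of G2/M targets from 0.21 to 0.27.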
